A study of Homo sapiens with 26 samples.

Results

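A375 clone 1 is a population of the human melanoma line A375 that tolerates BET bromodomain inhibition, and its transcriptome after 6 h in vehicle (dimethyl sulfoxide, DMSO) was set against the same clone untreated at 0 h. The comparison used 4 of the 26 libraries of the series, 2 for each state, taken from the table of FPKM values (fragments per kilobase of transcript scaled to the mapped fragments of the library). Of the 63129 genes in that table, 15362 reached 1 FPKM in at least 2 of the 4 libraries and were tested.

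The series profiled A375 and the acute myeloid leukaemia line NOMO-1, each as sensitive parental cells and as cells tolerant to the BET inhibitor CPI203, and its title concerns the apoptotic network and the response to BET inhibitors. A375 carries mutant BRAF. The 18 A375 libraries form 9 groups of 2: parental cells, clone 1 and clone 4, each untreated at 0 h, after 6 h of DMSO and after 6 h of 1 uM CPI203. Total RNA was extracted with TRIzol or an RNeasy kit, and the labels do not say which was used for which library. By their labels, clone 1 untreated cells were given neither vehicle nor inhibitor in the treatment step. Clone 1 DMSO cells were given the vehicle alone for 6 h. Parental cells and clone 4 in the same 2 states served for comparison. Both clones were derived as resistant lines, each is a single named line, and the labels do not say whether they were kept in CPI203 up to harvest. Time, handling and vehicle changed together between the 2 states and cannot be told apart, nor can any earlier exposure to CPI203 or its removal. Whether the 2 replicates of a group came from separate cultures is not stated, so p-values may measure technical spread only.

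BET proteins such as BRD2 read acetylated histones and recruit the elongation kinase P-TEFb, and HEXIM1, an inhibitor of P-TEFb, is a widely used marker of BET inhibition because it rises under these drugs. Hypoxia-inducible factors (HIF) switch on glycolytic enzymes, glucose carriers and genes such as BNIP3 and CA9 when oxygen is short. E2F factors drive the genes of DNA replication as cells enter S phase. TXNIP, an arrestin that limits glucose uptake, is induced by glucose through the factor MondoA.

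Summed FPKM was 539067 and 535077 in the untreated libraries and 505899 and 533810 in the DMSO libraries, and 14733, 14730, 15088 and 15129 genes reached 1 FPKM. No read counts were available, so absolute depth is unknown. Replicates differed by a median of 0.12 log2 units per gene in untreated clone 1 and 0.10 in DMSO-treated clone 1. It was larger in parental DMSO (0.22), clone 4 DMSO (0.30) and clone 4 CPI203 (0.23). One label field calls the untreated clone libraries parental, whereas their titles name the clone, and the titles were followed. Of 151 genes that separated clone 1 from parental cells under CPI203, 143 were nearer to clone 1 in each untreated clone 1 library, against 14 and 13 in the parental untreated libraries. Clone 1 and clone 4 were separated by 22 genes, of which 14 and 19 were nearer to clone 1 in the untreated clone 1 libraries and 6 and 9 in those of clone 4. Untreated parental libraries scored 14 and 16 on the same genes, so these tell the clones apart only weakly. The parental genes TFAP2B, TRAF1, RXRG, LAD1 and PTGES stood between 0 and 0.643 FPKM in untreated clone 1 and between 13.1 and 90.1 FPKM in untreated parental cells. They were chosen as low in the clones with earlier results of these data known, so their values are a description only. The neural crest factor SOX10 was at 138 to 214 FPKM in the 4 clone 1 libraries, and the pigment gene TYR was listed at 0 in all of them.

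Nearly 1 in 2 genes differed between the 2 states. With limma on log2(FPKM + 1), fitted to all A375 libraries, 7033 genes (45.8%) passed a Benjamini-Hochberg adjusted p of 0.05, of which 4933 (32.1%) were higher and 2100 (13.7%) lower after 6 h in DMSO. On this log2(FPKM + 1) scale, which understates changes of genes with low values, 796 genes (5.18%) rose and 385 (2.51%) fell by at least 1 log2 unit. The median difference of all genes tested was 0.16, and 70.1% of the genes that passed were higher. That share was 52.5% after quantile normalization and 50.1% after median-ratio scaling, under which the median of all genes was 0.01 and -0.01, so the excess of rises depended on the scaling. Of 46 gene lists with a tested member, 9 had a median that changed sign under at least 1 of 4 scalings, so their medians, given further on with their counts, carry no direction. These were the lists of BET proteins, ribosomal proteins, MAPK output, the unfolded protein response, interferon, BH3-only and effector genes, dedifferentiated melanoma, autophagy and the respiratory chain. Counts of list members are to be read against the 32.1% of all genes that were higher and the 13.7% that were lower. Strandedness is not given in the sources used here, so values of named genes that overlap a neighbour (HILPDA, GAPDH, CA9, LYZ, KIAA1199, MOK, C10orf10, DDIT4) are uncertain to that extent.

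**Figure D1:**
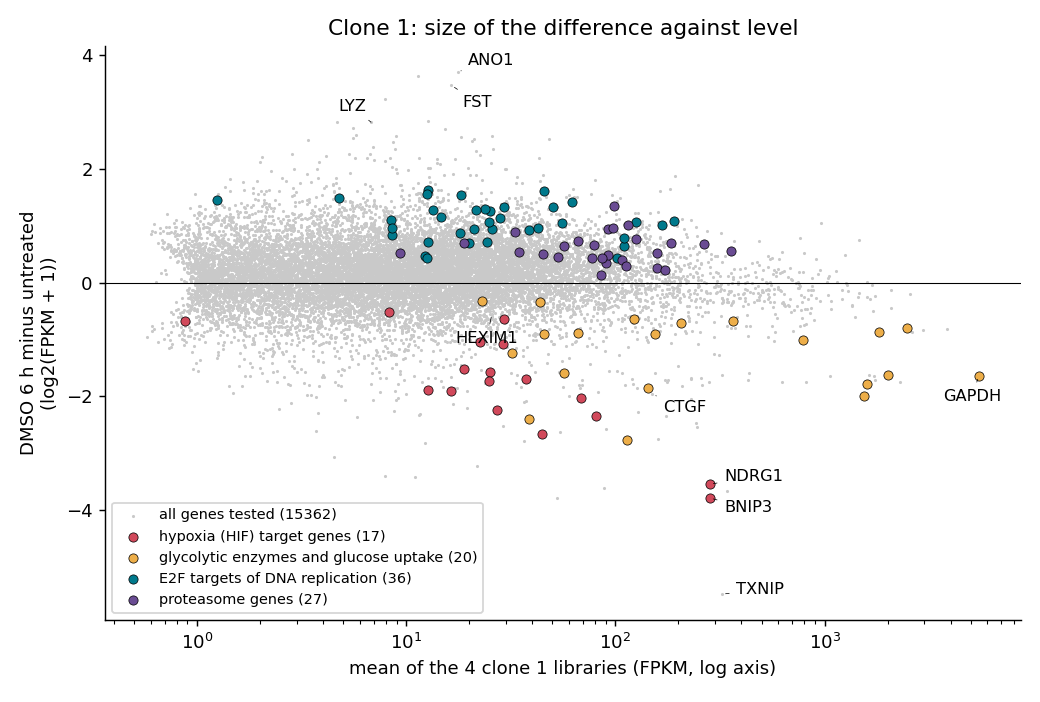
Difference between DMSO 6 h and untreated clone 1 (log2 of FPKM + 1) against the mean level, 1 grey point per gene tested, with the HIF, glycolysis, E2F and proteasome lists in colour. TXNIP lies lowest at -5.48, BNIP3 and NDRG1 are labelled at -3.79 and -3.55, and ANO1 is the highest of the named rises at 3.71.

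Hypoxia genes fell together. All 17 tested members of the list of HIF targets (20 symbols) passed and were lower in DMSO, with a median of -1.72 against 0.16 for all genes, and at least 16 passed as lower under each scaling. Summed over the list, their share of all FPKM was 0.325% ± 0.00112 (SD, n = 2) in untreated clone 1 and 0.0532% ± 0.00122 in DMSO. In parental cells the same share was 0.0643% before and 0.0489% after. In clone 4 it went from 0.188% to 0.0486%, with 16 of the 17 genes lower. Untreated clone 1 was the highest, untreated clone 4 came next, and DMSO-treated clone 1 lay close to both parental states.

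The sequences 250 bases upstream of the start of 2 falling HIF targets are shown because they carry the letters that HIF recognises. They are RefSeq sequences of build GRCh38.p14, BNIP3 at chr10:131981924-131982173 on the minus strand and CA9 at chr9:35673678-35673927 on the plus strand. Capitals mark matches to ACGTG or GCGTG on either strand, and adjoining matches overlap.
BNIP3: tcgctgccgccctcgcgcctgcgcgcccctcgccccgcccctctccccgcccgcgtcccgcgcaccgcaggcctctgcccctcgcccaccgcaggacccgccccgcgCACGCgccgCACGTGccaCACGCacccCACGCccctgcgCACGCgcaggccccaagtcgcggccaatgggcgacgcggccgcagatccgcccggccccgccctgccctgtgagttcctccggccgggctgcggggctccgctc
CA9: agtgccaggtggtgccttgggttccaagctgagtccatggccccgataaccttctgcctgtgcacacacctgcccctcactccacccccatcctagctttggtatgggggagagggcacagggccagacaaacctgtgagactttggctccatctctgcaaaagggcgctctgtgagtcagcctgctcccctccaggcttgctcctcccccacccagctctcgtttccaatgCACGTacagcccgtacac
BNIP3 held 6 matches and CA9 held 1. A match was present in 10 of 13 listed HIF targets with a sequence (76.9%), in 12 of 19 glycolytic genes (63.2%), in 58.6% of 9045 tested genes with a sequence and in 43.1% of all 27305 sequences in the table, so the motif is common and a match is a description only.

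BNIP3 (ENSG00000176171, hg19 chr10:133781577-133795435), a mitochondrial BH3-like protein that promotes mitophagy, stood at 533 and 522 FPKM untreated and at 37.1 and 37.3 FPKM in DMSO. The states did not overlap, as the selection of the largest falls required. The fall was 3.79 on the log2 scale (SE 0.09, adjusted p = 3.7e-11, limma). Its pseudogene BNIP3P1 gave the same picture, from 656 and 609 to 49.7 and 47.9 FPKM, but reads of the 2 copies may have been split between them. NDRG1, a stress-responsive gene induced by hypoxia, went from 513 and 530.3 to 43.1 and 44.1 FPKM, a log2 difference of -3.55 (SE 0.08, adjusted p = 1.1e-11, limma). HILPDA, a lipid droplet protein, went from 167 and 159.8 to 12.8 and 12 FPKM. MIR210HG, the host of the hypoxia-induced microRNA miR-210, dropped from 19.6 and 22.3 to 0.815 and 1.28 FPKM. P4HA1, a collagen prolyl hydroxylase, fell by 2.35 on the log2 scale, and the vasodilator peptide ADM by 1.69. STC1, a secreted glycoprotein, dropped from 41.9 and 38.1 to 3.90 and 2.92 FPKM. ANGPTL4, a secreted inhibitor of lipoprotein lipase, dropped from 70.0 and 84.8 to 11 and 12 FPKM.

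The next 3 HIF targets were chosen after their values were seen. CA9, a cell-surface carbonic anhydrase, stood at 45.2 and 45.6 FPKM untreated and at 8.58 and 9.15 FPKM in DMSO, a fall of 2.23 on the log2 scale (SE 0.17). PDK1, which keeps pyruvate out of mitochondria, fell by 1.89, from 22.7 and 18.5 to 4.33 and 5.28 FPKM. VEGFA, the angiogenic growth factor, moved least of them, from 36.7 and 35.3 to 22.0 and 23.7 FPKM, a fall of 0.64 (adjusted p = 0.000435, limma).

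Every one of the 20 glycolytic enzymes and glucose carriers listed passed and was lower in DMSO, with a median of -0.96 and a range from -2.77 to -0.33. Under alternative scalings 18 to 20 of them passed as lower. The list made up 4.60% ± 0.0139 (SD, n = 2) of all FPKM in untreated clone 1 and 1.83% ± 0.0222 in DMSO, against 1.32% and 1.66% in parental cells. Clone 4 was like clone 1, at 3.73% untreated and 1.82% in DMSO, with 19 of the 20 genes lower. GAPDH (ENSG00000111640, hg19 chr12:6643092-6647537), often used as a reference gene, had the highest FPKM of all genes in both untreated libraries, 8192 and 8344, and stood at 2520.1 and 2789 in DMSO. Its log2 difference was -1.64 (SE 0.16, adjusted p = 5.4e-06, limma), and in DMSO the calcium-binding protein gene S100A6 led both libraries instead. PGK1, phosphoglycerate kinase, went from 2542 and 2367 to 607 and 622 FPKM, a fall of 2.0. LDHA, which turns pyruvate into lactate, went from 2618 and 2345 to 708 and 732 FPKM. The aldolase ALDOC fell by 2.77 and the enolase ENO2 by 1.86. Several of these genes, GAPDH above all, have processed pseudogenes, so the split of reads among copies is uncertain.

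Among members chosen after their values were seen, the glucose carrier SLC2A3 fell by 2.40 and SLC2A1 by 0.91, hexokinase HK2 by 1.25, pyruvate kinase PKM by 0.88 and ENO1 by 0.80, all past the threshold. SLC2A3 went from 67.5 and 64.1 to 12.4 and 10.9 FPKM. Of 30 nuclear-encoded respiratory chain genes, 6 rose and 2 fell, with a median of 0.19. Subunit NDUFS3 rose by 0.79 and SDHA, the flavoprotein of complex II, fell by 0.47.

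**Figure D2:**
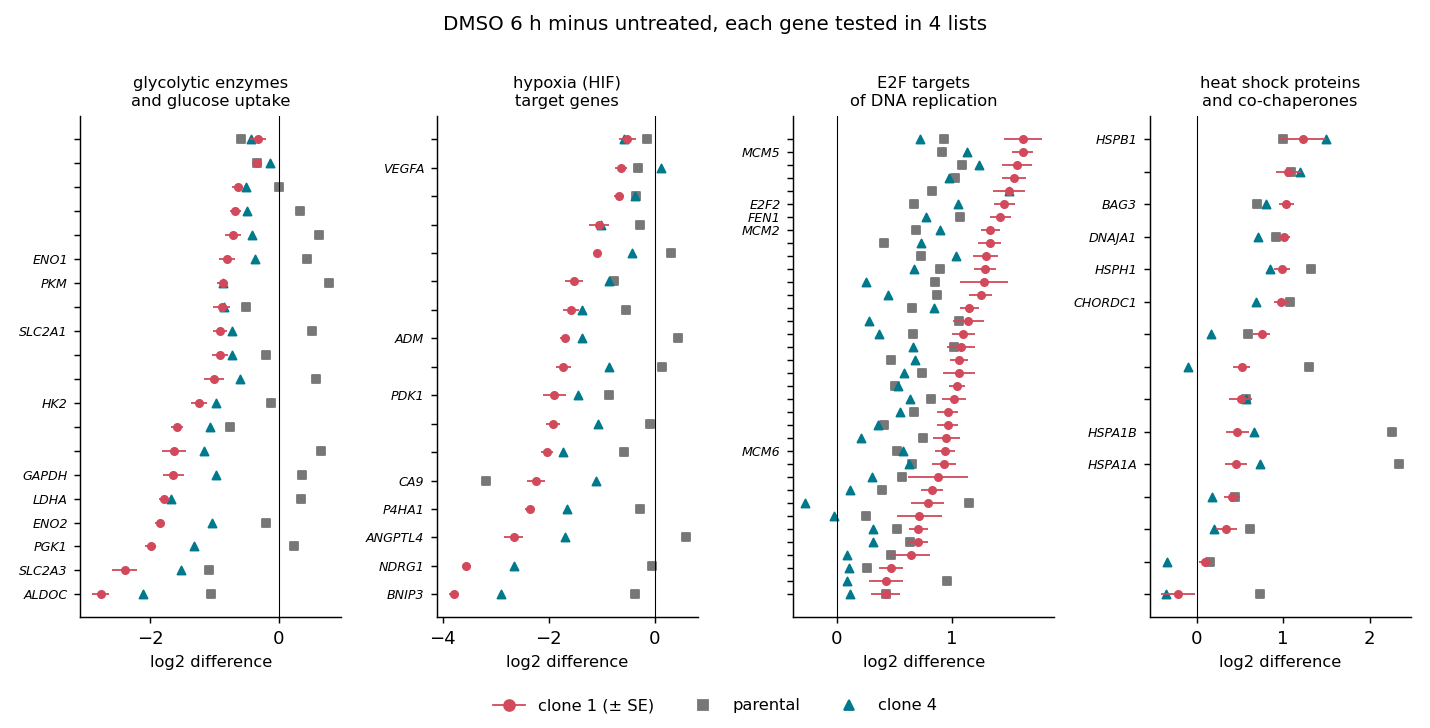
Log2 difference between DMSO 6 h and untreated for each tested member of 4 lists (glycolysis, HIF targets, E2F targets of DNA replication, heat shock proteins). Names are given for genes described in the text. Circles with bars give clone 1 with its SE, squares parental cells and triangles clone 4; all clone 1 circles of the first 2 lists lie below 0 and all of the E2F list above 0.

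TXNIP showed the largest fall of any named gene on the log2(FPKM + 1) scale. The sequence upstream of its start is shown because it holds the carbohydrate response element through which MondoA acts, at chr1:145996580-145996829 on the minus strand (GRCh38.p14, RefSeq). Capitals mark the match to this element, a pair of E boxes with a fixed gap, searched on both strands.
TXNIP: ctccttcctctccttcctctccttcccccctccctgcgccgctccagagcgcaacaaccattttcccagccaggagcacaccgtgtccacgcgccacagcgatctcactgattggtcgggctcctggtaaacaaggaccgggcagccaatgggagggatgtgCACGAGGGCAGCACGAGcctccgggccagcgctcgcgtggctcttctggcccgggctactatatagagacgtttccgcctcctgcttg
Such a match was found in 11 tested genes (0.122%) and in 16 of all sequences (0.0586%), and in 1 of the 5 arrestin genes. TXNIP (ENSG00000117289, hg19 chr1:145438468-145442635) stood at 659 and 607 FPKM untreated and at 13.4 and 12.9 FPKM in DMSO. The log2 difference was -5.48 (SE 0.08, adjusted p = 1.3e-13, limma). It also fell in parental cells, by 2.73, and in clone 4, by 2.95, from lower starting levels of 62.3 and 63.5 FPKM and of 172 and 162 FPKM. After 6 h in DMSO the 3 populations lay between 8.38 and 20.8 FPKM.

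Of the 5 tested arrestin genes, 3 fell and 1 rose, with a median of -2.08. ARRDC4, the closest relative of TXNIP and another MondoA target, dropped from 11.6 and 9.38 to 1.22 and 1.21 FPKM. ARRDC3, which directs receptors to degradation, fell by 2.08. ARRDC2 rose by 0.30 at an adjusted p of 0.048 (limma), a call lost under several alternatives.

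Genes of quiescence and FOXO activity followed: 9 of 14 tested members fell and 0 rose, with a median of -0.68 (parental cells -0.58, clone 4 -0.62). TXNIP belongs to this list too. CITED2, a transcriptional co-regulator and HIF target, fell by 1.85, the cyclin G2 gene CCNG2 by 1.66 and the stress sensor SESN3 by 1.57. C10orf10, a FOXO target also known as DEPP, dropped from 9.04 and 8.65 to 0.151 and 0.192 FPKM, and it overlaps the gene RASSF4 on the genome. Of 15 clock and glucocorticoid response genes, 8 fell and 1 rose, with a median of -0.39 (parental cells -0.34, clone 4 -0.18). The clock repressors BHLHE40 and BHLHE41 fell by 2.52 and 1.83, the output factor DBP by 1.26 and CRY2 by 0.78.

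DNA replication genes rose as a block. All 36 listed E2F targets passed and were higher in DMSO, with a median of 1.06 and a range from 0.43 to 1.62, and at least 33 passed under each scaling. Their share of all FPKM was 0.185% ± 0.00148 (SD, n = 2) untreated and 0.388% ± 0.00142 in DMSO, against 0.195% and 0.314% in parental cells. In clone 4 it was 0.253% and 0.332%, with 25 of the 36 genes higher. MCM5, a subunit of the replicative helicase, went from 21.3 and 22.7 to 65.5 and 73.6 FPKM, a rise of 1.61 (SE 0.09, adjusted p = 5.8e-08, limma). MCM2 of the same helicase went from 27.3 and 29 to 69.4 and 75.9 FPKM. The flap endonuclease FEN1 rose by 1.42. E2F2, an activator E2F, rose from 0.169 and 0.235 to 2.25 and 2.34 FPKM. In each of these 4 genes both DMSO libraries lay above both untreated ones, which picking by the smallest adjusted p favours. E2F2 passed the filter of 1 FPKM through its DMSO libraries alone.

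MCM6, chosen after its values were seen, is shown because its upstream sequence holds pairs of E2F letters at chr2:135876444-135876693 on the minus strand (GRCh38.p14, RefSeq). Capitals mark matches to TTTCCCGC, TTTGGCGC, TTTCGCGC or TTTGCCGC on either strand, and matches on opposite strands overlap.
MCM6: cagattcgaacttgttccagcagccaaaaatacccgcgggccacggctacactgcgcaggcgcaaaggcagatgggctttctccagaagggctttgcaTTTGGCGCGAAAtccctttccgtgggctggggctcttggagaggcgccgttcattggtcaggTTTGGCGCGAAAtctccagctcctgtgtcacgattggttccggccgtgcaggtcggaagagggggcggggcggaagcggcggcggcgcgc
It held 4 matches. At least 1 was present in 12 of 31 E2F list members with a sequence (38.7%), in 4.69% of tested genes and in 2.79% of all sequences. MCM6 itself went from 18.2 and 16.5 to 33.9 and 34.3 FPKM, a rise of 0.94 (SE 0.09, adjusted p = 3e-06, limma).

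**Figure D3:**
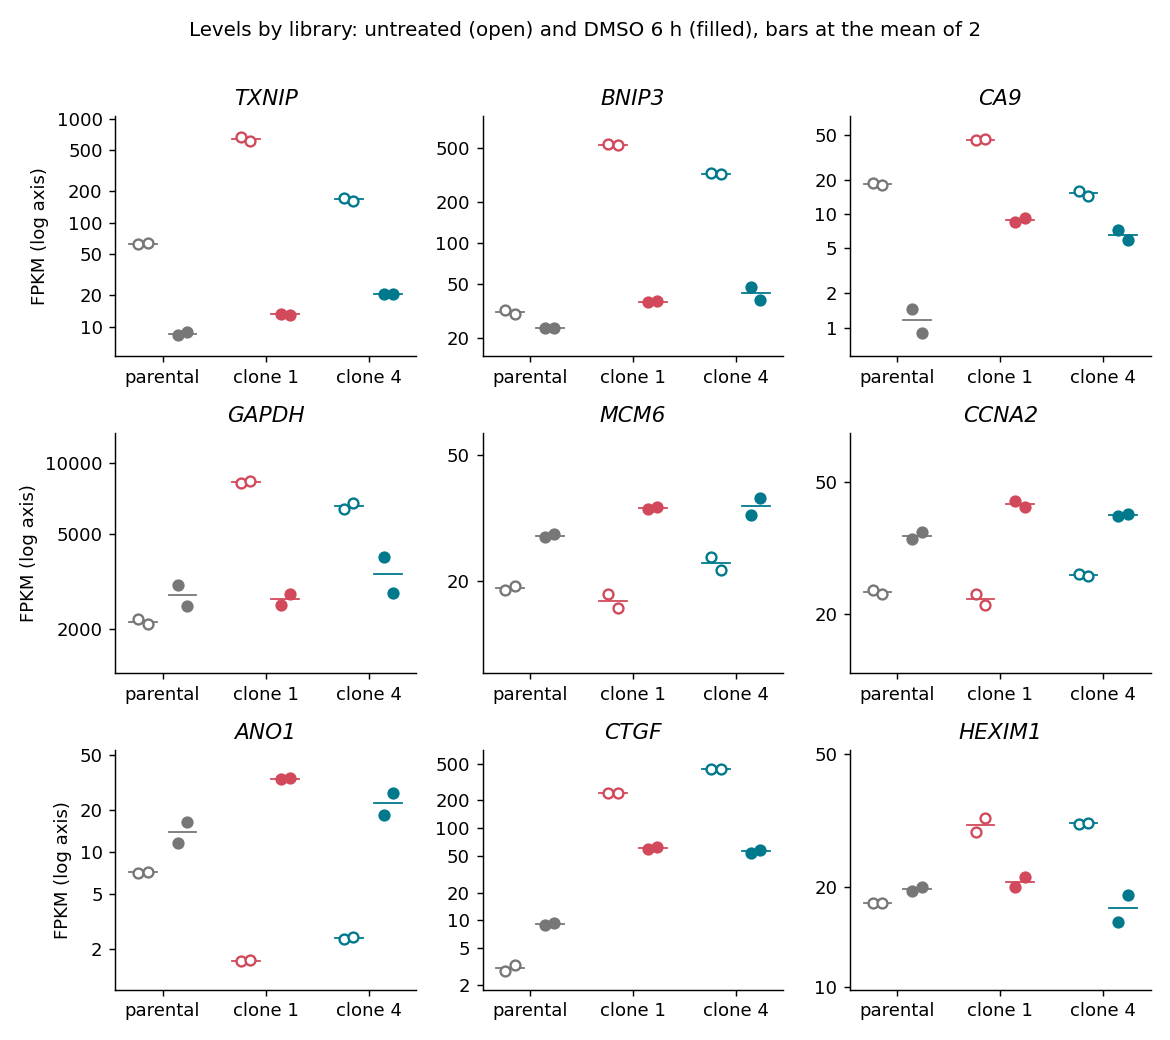
FPKM in each library (log axis) of TXNIP, BNIP3, CA9, GAPDH, MCM6, CCNA2, ANO1, CTGF and HEXIM1 in parental cells, clone 1 and clone 4, open points untreated, filled points DMSO 6 h and bars at the mean of 2. In clone 1 the open points of TXNIP lie at 659 and 607 and the filled points at 13.4 and 12.9.

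Mitotic genes rose as well: 28 of 30 listed spindle and mitosis genes passed as higher and 0 as lower, with a median of 0.61. Cyclin A2 (CCNA2) went from 23.0 and 21.3 to 43.7 and 41.9 FPKM. The mitotic kinase PLK1 rose by 0.83, the spindle assembly factor TPX2 by 0.83 and survivin (BIRC5) by 0.96. Among 13 tested G1 regulators, 5 rose and 2 fell, with a median of 0.21. CDK2 rose by 0.78, cyclin D3 (CCND3) by 0.76 and CDK4 by 0.61, while the CDK inhibitor CDKN2D fell by 0.82. Cyclin D1 (CCND1) stood at 223 and 229.9 FPKM untreated and 282 and 295 FPKM in DMSO, an estimate of 0.35 that did not pass (adjusted p = 0.077, limma) but did in 4 alternatives, among them the 6 clone 1 libraries alone. The CDK inhibitor p21 (CDKN1A) was at 146, 155, 163 and 185 FPKM and did not pass either (adjusted p = 0.19), but passed as higher in 3 alternatives, at 0.25 on equal FPKM sums.

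Proteasome and heat shock genes were mostly higher. Of 27 proteasome genes, 22 passed as higher and 0 as lower, with a median of 0.55 (parental cells 0.53, clone 4 0.49). Over the scalings 15 to 27 passed as higher. PSMC3, an ATPase of the regulatory particle, went from 57.3 and 53.1 to 140.4 and 145 FPKM. PSMB2, a core subunit, rose by 0.90, PSMC2 by 0.73 and the deubiquitinase PSMD14 by 0.64. Of 15 tested heat shock genes, 13 rose and 0 fell, with a median of 0.52. With median-ratio scaling 8 of the 15 rose. DNAJA1, an HSP40 co-chaperone, went from 101 and 91.7 to 194 and 195 FPKM. The co-chaperones BAG3 and CHORDC1 rose by 1.04 and 0.98 and the HSP110 chaperone HSPH1 by 0.99. HSPB1, a small heat shock protein chosen after its values were seen, rose by 1.23. The near-identical inducible genes HSPA1A and HSPA1B, chosen likewise, were at 102 and 114 against 134 and 164 FPKM and at 94.6 and 106 against 126 and 155 FPKM, and reads may have been shared between them.

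In lists of biosynthesis other than ribosomal proteins more genes rose than fell. Of 29 MYC network genes, 17 rose and 3 fell, with a median of 0.52. RRS1, a ribosome assembly factor, rose by 1.17, ODC1, the first enzyme of polyamine synthesis, by 0.90 and the MYC partner MAX by 0.83, while the MAX-binding repressor MXI1 fell by 1.53. MYC itself was at 12.1 and 12.8 FPKM untreated and 9.67 and 10.9 FPKM in DMSO and did not pass (-0.25, adjusted p = 0.065, limma). It passed as lower under several alternatives, at -0.42 after quantile normalization. Of 20 aminoacyl-tRNA synthetases, 11 rose and 1 fell (median 0.30), but with median-ratio scaling 4 rose and 3 fell. MARS rose by 0.85 and VARS by 0.83. Of 16 SR proteins and CLK kinases of splicing, 10 rose and 4 fell (median 0.53), with SRSF1 at 92.0 and 83.8 against 185 and 175 FPKM and SRSF7 up by 0.77. Of 87 ribosomal protein genes, 6 rose and 6 fell (median -0.13), and this list went to 2 against 23 and to 28 against 9 under median-ratio scaling and quantile normalization.

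HEXIM1 and SERPINI1, both raised by BET inhibition, fell in clone 1 in DMSO. HEXIM1 (ENSG00000186834) stood at 29.1 and 32.2 FPKM untreated and at 19.9 and 21.4 FPKM in DMSO, a fall of 0.55 (SE 0.09, adjusted p = 0.00031, limma). SERPINI1, a neuronal protease inhibitor listed as a BET inhibitor response gene, went from 6.60 and 6.36 to 0.606 and 1.17 FPKM. Among the other members of the list of BET proteins and P-TEFb regulators, of which 4 of 15 rose and 4 fell in all (median 0.09), HEXIM2 rose by 0.90 and the 7SK capping enzyme MEPCE by 0.60. BRD2 went from 90.9 and 90.8 to 68.2 and 66.4 FPKM (-0.43, adjusted p = 0.0052, lost on scaling to equal FPKM sums).

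Of 12 polyadenylated histone genes, which BET inhibitors commonly raise, 7 passed as lower and 0 as higher, with a median of -0.81. HIST1H2BD went from 12.2 and 12.6 to 2.64 and 2.39 FPKM. HIST2H2BE fell by 1.63, HIST1H1C by 1.6 and the linker histone H1F0 by 0.96. In clone 1 given CPI203 for the same 6 h, HIST1H2BD was at 11.4 and 12.1 FPKM, HEXIM1 at 44 and 44.9 FPKM and SERPINI1 at 6.01 and 5.6 FPKM. Of the replication-dependent histone genes only 2 of 40 were tested, and HIST1H2AG fell by 0.86.

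Most genes that CPI203 moved in parental cells moved the opposite way in clone 1 between untreated and DMSO. The parental comparison of CPI203 with DMSO shares no library with the clone 1 comparison. It raised 323 genes (2.1% of those tested) and lowered 565 (3.68%) by at least 1 log2 unit. Of the raised genes, 189 (58.5%) were lower in clone 1 in DMSO and 5 higher, with a median of -0.55. Of the lowered genes, 474 (83.9%) were higher and 10 lower, with a median of 1.00, against 32.1% higher and a median of 0.16 for all genes. In clone 4 the corresponding counts were 249 lower of 323 and 489 higher of 565, against 13.7% lower and 29.5% higher for all genes. Over 4 scalings the share of raised genes that were lower ranged from 48.0% with equal FPKM sums to 73.1% after quantile normalization.

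**Figure D4:**
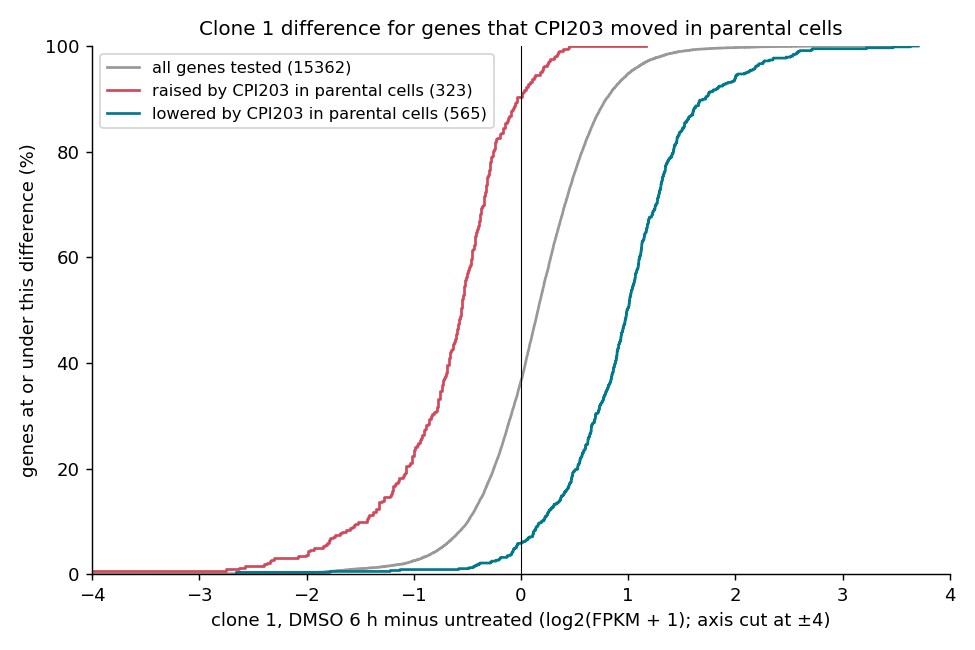
Cumulative percentage of genes against the clone 1 difference between DMSO 6 h and untreated (log2), for genes raised by CPI203 in parental cells (323), lowered by it (565) and all genes tested. The curve of raised genes is shifted to the left (median -0.55) and that of lowered genes to the right (median 1.00) of the curve of all genes (median 0.16).

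CTGF, a matricellular target of YAP, belonged to the genes that CPI203 raised. It stood at 239.7 and 240.1 FPKM in untreated clone 1 and at 59.3 and 62.1 FPKM in DMSO, a fall of 1.96 (SE 0.08, adjusted p = 4e-09, limma). Clone 1 given CPI203 was at 410.0 and 433 FPKM. CYR61, its relative, fell by 1.78. The list of YAP and SRF targets was mixed, with 5 of 16 higher and 3 lower and a median of -0.05, and the actin-binding TPM1 rose by 1.24 and ANKRD1 by 0.83.

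FST, follistatin, an activin antagonist, was among the largest rises. It stood at 1.79 and 1.98 FPKM untreated and at 31.1 and 30.9 FPKM in DMSO, a rise of 3.47 (SE 0.13, adjusted p = 2.3e-09, limma). With CPI203 clone 1 was at 5.20 and 4.37 FPKM. ANO1, a calcium-activated chloride channel, rose most of the named genes on the log2(FPKM + 1) scale, by 3.71 (SE 0.16). It went from 1.63 and 1.66 to 33.2 and 33.9 FPKM. The actin-associated SHROOM2 went from 0.907 and 0.794 to 21.7 and 22.3 FPKM. ROBO4, an endothelial guidance receptor, went from 0.532 and 0.945 to 14.4 and 15.9 FPKM.

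The other 11 of the 15 largest rises were between 2.53 and 2.84 on the log2 scale. They include the neural adhesion molecule NTM (2.21 and 2.52 to 24.2 and 21.9 FPKM), the mesenchymal homeobox gene PRRX1 (3.18 and 3.48 to 30.1 and 24.8 FPKM) and the hyaluronan-binding KIAA1199 (0.624 and 0.848 to 11.2 and 9.70 FPKM). The others were TM4SF18, LYZ, CYB5R2, CAPS, PHF15, GPR110, the gap junction gene GJB1 and the kinase MOK. In all 15 the DMSO libraries lay above the untreated ones, as the selection required.

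Among the 15 largest falls not yet given, NRN1, a neurite growth factor, went from 99.8 and 97.2 to 6.02 and 6.40 FPKM (-3.79). Among loci without a gene name, AP001065.15 fell by 2.83, RP11-51M18.1 by 2.76 and RP11-442H21.2 by 3.41. The last lies inside DDIT4, and its untreated libraries differed widely at 25.1 and 5.90 FPKM. DDIT4, an inhibitor of mTORC1 induced by hypoxia and by ATF4, went from 374 and 453 to 67.5 and 79.7 FPKM, a fall of 2.47 (SE 0.15).

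In the lipid lists more genes fell than rose. INSIG1, which holds SREBP in the endoplasmic reticulum and is itself an SREBP target, went from 66.0 and 62.7 to 8.53 and 8.37 FPKM, a fall of 2.79 (SE 0.10, adjusted p = 1.4e-09, limma). Of 23 cholesterol genes, 11 fell and 4 rose (median -0.38), with SREBF2 down by 0.95, MSMO1 by 0.82 and the squalene epoxidase SQLE by 0.76. Of 12 fatty acid genes, 7 fell and 2 rose, with a median of -0.37. The desaturase SCD went from 190.0 and 178 to 56.6 and 54.8 FPKM, ACSL3 fell by 0.83 and ACSS2 by 0.47, while the desaturase FADS2 rose by 1.04.

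Ferritin genes fell, and the NRF2 list was mixed. Of 17 NRF2 targets, 9 fell and 2 rose, with a median of -0.47. Ferritin heavy chain (FTH1) went from 2488 and 2708 to 777 and 886 FPKM and light chain (FTL) from 1634 and 1577 to 502 and 531 FPKM, each a fall of 1.64. Both ferritin genes have many processed pseudogenes, so their values are uncertain. NQO1, a quinone reductase, fell by 0.86, whereas AKR1C1, an aldo-keto reductase, rose by 1.58. The metallothionein MT1X fell by 1.45, the 1 of 4 tested genes of its list to pass.

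Apoptosis genes of the BCL2 family were split. Of 5 tested anti-apoptotic BCL2 family genes, 3 rose and 0 fell, with a median of 0.34. BCL2 went from 0.987 and 1.06 to 2.31 and 2.45 FPKM (0.74, adjusted p = 0.0049, limma) and BCL2L2 rose by 0.47, lost under median-ratio scaling. MCL1 was at 98.7 and 92.4 against 125 and 118 FPKM (0.34, adjusted p = 0.044), a call that was lost under several alternatives. BCL2L1, which encodes BCL-XL, was at 57.8 and 59.7 against 66.3 and 66.8 FPKM and did not pass (adjusted p = 0.097); it passed as higher in 2 alternatives and its sign turned with median-ratio scaling, at -0.017. Of 9 BH3-only and effector genes, 4 rose and 2 fell, with a median of 0.01. The effectors BAK1 and BAX rose by 0.91 and 0.81 and BID by 0.63. BMF fell by 0.94, from 1.53 and 1.5 to 0.332 and 0.283 FPKM, and PMAIP1 (NOXA) by 0.32 at an adjusted p of 0.0089 (limma), lost without untreated replicate 1 and on equal FPKM sums. BCL2L11, which encodes BIM, was at 3.84, 4.50, 3.47 and 3.22 FPKM and did not pass (adjusted p = 0.13), but passed as lower in 3 alternatives, at -0.40 after quantile normalization. Of 23 p53 targets, 12 rose and 0 fell (median 0.29), and 8 rose and 3 fell with median-ratio scaling. The death receptor FAS went from 3.85 and 3.80 to 14.4 and 15.4 FPKM, the nuclease AEN rose by 1.31, GDF15 by 1.03 and TRIAP1 by 0.78.

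Signalling lists were mixed. Of 23 AP-1 and immediate early genes, 12 fell and 4 rose (median -0.40): FOS went from 18.9 and 18.8 to 4.26 and 5.57 FPKM, FOSL2 fell by 1.16 and the mRNA decay factor ZFP36 by 1.00, and EGR3 rose by 1.26. Of 17 MAPK output genes, 5 rose and 5 fell (median 0.01), with PHLDA1 down by 0.64, the phosphatase DUSP5 by 0.65 and SPRY2 by 0.34, and EPHA4 up by 0.92. Of 20 NF-kB targets and cytokines, 9 fell and 5 rose (median -0.23), with IL8 down by 1.13, ICAM1 by 0.85 and CXCL2 by 0.73, and NFKB1 up by 1.12. Of 22 interferon genes, 8 rose and 6 fell (median 0.12), with OAS3 and OAS1 up by 1.58 and 1.32 and IFIT2 and OASL down by 1.07 and 0.82.

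Of 15 TGF-beta and BMP response genes, 2 rose and 5 fell (median -0.05): besides FST, PMEPA1 rose by 1.18, while ID2 fell by 1.41. Of 11 WNT genes, 3 rose and 2 fell (median 0.26), with LEF1 up by 1.03, WNT10B by 0.86 and the inhibitors DKK3 and DKK1 down by 1.08 and 0.63. Of 10 NOTCH genes, 3 rose and 0 fell (median 0.25): HES1 by 1.23, NOTCH4 by 0.69 and NOTCH3 by 0.67, the last lost when 1 of 2 libraries was left out. Of 24 matrix and integrin genes, 7 rose and 7 fell, with a median of -0.14. The basement membrane collagens COL4A1 and COL4A2 went from 18.4 and 18.9 to 72.5 and 70.8 FPKM and from 52.2 and 56.4 to 144 and 155 FPKM. TIMP3, a metalloproteinase inhibitor, rose by 1.88 and the integrin ITGA3 fell by 1.26.

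Of 15 listed melanocyte genes 6 were tested, and 4 rose and 0 fell (median 0.53). RAB27A rose by 1.24, PAX3 by 0.68, ERBB3 by 0.64 and SOX10 by 0.42. The SOX10 call was lost under median-ratio scaling and when 1 of 2 libraries was left out. MITF went the other way, from 10.8 and 9.16 to 7.06 and 8.17 FPKM (-0.35), and did not pass. PMEL, MLANA, TYRP1 and DCT were below 1 FPKM in all 4 clone 1 libraries. Of 15 genes of dedifferentiated melanoma and receptor kinases, 5 rose and 4 fell (median 0.14), with AXL going from 277 and 277 to 176 and 171 FPKM, NT5E down by 1.03, JUN by 0.79 and SOX2 up by 0.78. Of 25 ATF4 targets, 8 rose, a share close to that of all genes, and 5 fell (median 0.17): the serine enzyme PSAT1 rose by 1.01 and ATF5 by 1.44, and VLDLR fell by 1.43. Of 16 unfolded protein response genes, 4 rose and 3 fell (median 0.03), with XBP1 up by 0.60, DNAJB11 by 0.72 and SDF2L1 by 0.95, and HSP90B1 down by 0.35. The SDF2L1 call was lost without DMSO replicate 2 and the HSP90B1 call after quantile normalization. Of 13 amino acid transporters, 6 rose and 2 fell (median 0.41): SLC7A11, the cystine carrier, rose by 1.35 and SLC6A9 by 1.29, while SLC1A4 fell by 0.69. Of 23 autophagy and lysosome genes, 4 rose and 6 fell (median -0.04), with GABARAPL1 and WIPI1 down by 0.66 and 0.99 and ATG13 up by 0.69.

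**Figure D5:**
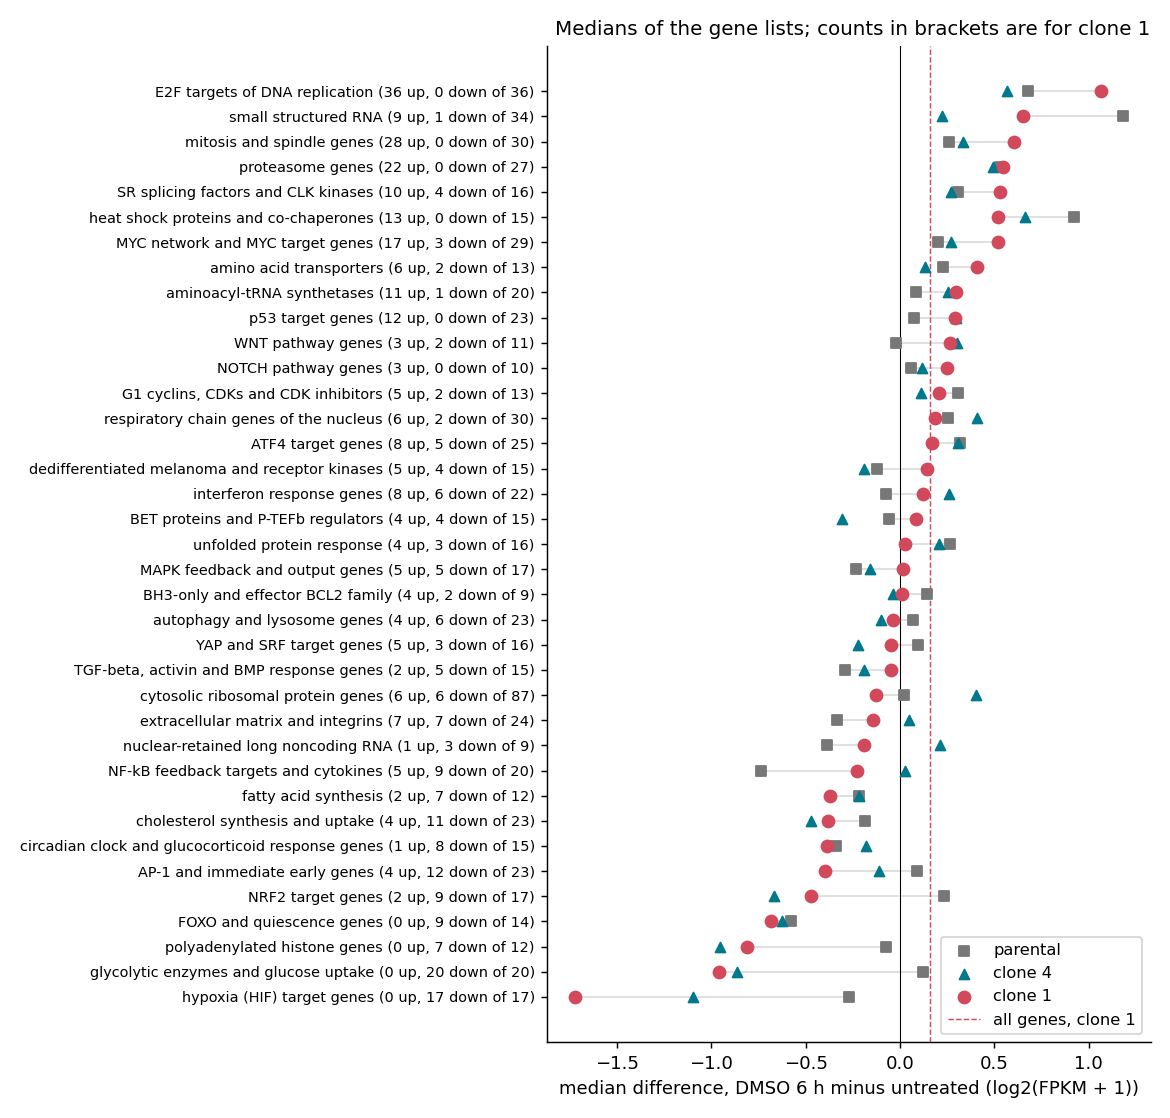
Median log2 difference between DMSO 6 h and untreated over the tested members of each gene list with at least 9 of them (cell type markers left out), in clone 1 (circles), parental cells (squares) and clone 4 (triangles), with a dashed line at the clone 1 median of all genes. In clone 1 the HIF targets (-1.72) and glycolysis (-0.96) lie to the left and the E2F targets (1.06) to the right, while the corresponding parental medians are -0.27, 0.12 and 0.68.

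Set against parental cells, the change in clone 1 differed in about 1 gene in 5. In parental cells 3341 genes (21.7%) passed, 1978 (12.9%) as higher and 1363 (8.87%) as lower. The difference between the 2 changes was tested directly and passed in 3224 genes (21%), 2257 (14.7%) in favour of a higher and 967 (6.29%) of a lower value in clone 1. The share in the higher direction, 70.0%, was 51.1% after quantile normalization and 48.3% with median-ratio scaling. Without parental DMSO replicate 1 and 2 clone 4 libraries that stood apart, 3827 and 1890 genes passed.

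Of the 20 glycolytic genes, 17 had a lower and 0 a higher change in clone 1 than in parental cells, and of the 17 HIF targets 12 had a lower and 1 a higher change. The exception was CA9, whose fall was larger in parental cells (3.18), giving a difference of 0.94 (adjusted p = 0.014, limma). In parental cells 8 glycolytic genes rose and 6 fell. GAPDH was at 2201 and 2083 FPKM in untreated and 3050.0 and 2496 FPKM in DMSO-treated parental cells, which did not pass (adjusted p = 0.13). The largest differences in the lower direction were HILPDA (-3.66), NDRG1 (-3.51), RP11-442H21.2 (-3.44), BNIP3 (-3.42), CTGF (-3.28), BNIP3P1 (-3.27), ANGPTL4 (-3.24) and CTC-260F20.3 (-2.99). NDRG1 and HILPDA had parental differences of -0.04 and 0.04. CTGF turned: it rose in parental cells by 1.32, from 2.85 and 3.30 to 8.87 and 9.41 FPKM. FTH1 turned likewise, from 161 and 164 to 302 and 233 FPKM in parental cells.

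Of the 36 E2F targets, 14 had a higher and 0 a lower change in clone 1 than in parental cells, where 32 rose. Of 30 mitotic genes, 8 had a higher change. Among heat shock genes the reverse held for 4 of 15, with HSPA1A rising by 2.33 in parental cells and by 0.45 in clone 1. The largest differences in the higher direction were KIAA1199 (3.68), ZNF532 (3.19), SHROOM2 (3.07), CAPS (3.01), PRRX1 (3.0), PDZD2 (2.95), NTM (2.85) and ANO1 (2.84). KIAA1199 was at 152 and 154 FPKM in untreated parental cells and at 66.1 and 92.6 FPKM after DMSO, far above both clone 1 states. FST, too, stayed below the parental levels of 96.7 to 166 FPKM.

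Clone 4 changed much like clone 1 in extent: 6644 genes (43.2%) passed, 4535 (29.5%) higher and 2109 (13.7%) lower. The difference between the clones passed in 154 genes (1%), 49 (0.319%) in the higher and 105 (0.684%) in the lower direction for clone 1. These counts were unstable: they were 1059 and 1088 without clone 4 DMSO replicate 2, 3 to 18 and 28 to 60 when any other of the 8 libraries was left out, and 0 and 7 in a fit of the compared libraries alone. Of 17 HIF targets 7 fell further in clone 1, and of 36 E2F targets 6 rose further.

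TXNIP had the largest difference between the clones (-2.53, adjusted p = 1.5e-07, limma). HILPDA fell further in clone 1 (-1.92), as did C10orf10 (-2.06) and the noncoding KB-1980E6.3 (-1.68). SERPINA3, an acute-phase protease inhibitor, went from 28 and 26.1 to 6.78 and 6.80 FPKM in clone 1 and from 10.8 and 11.3 to 10.2 and 7.81 FPKM in clone 4. The chemokine CCL5 went from 19.2 and 20.6 to 5.28 and 5.87 FPKM in clone 1 and from 21.6 and 22.3 to 24.1 and 17.0 FPKM in clone 4. IGFBP3, a carrier of insulin-like growth factors, fell by 0.42 in clone 1 and rose by 1.11 in clone 4. GSTM2, a glutathione transferase, did not pass in clone 1 (-0.40) and rose by 1.23 in clone 4.

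In the other direction, RRM2, the inducible subunit of ribonucleotide reductase, rose by 0.79 in clone 1 and was estimated at -0.27 in clone 4. Its copy RRM2P3 gave 0.84 and -0.12, with reads possibly shared. CTGF fell further in clone 4 (2.96), as did RHOB, a stress-induced GTPase (0.52 against 1.59). LYPD3 rose by 1.32 against 0.18 in clone 4, and CPT1A, the gatekeeper of fatty acid import into mitochondria, by 0.98 against -0.01. LA16c-3G11.7 rose by 0.86 against an estimate of -0.06. For each gene of this paragraph the call of a difference between the clones was lost in some alternatives, given further on.

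Markers of other cell types were few. In bulk RNA, fewer cells of a type and less RNA per cell cannot be told apart. None of the 9 lymphoid markers was tested, and 2 of 10 myeloid, 4 of 10 epithelial, 2 of 9 fibroblast or endothelial and 1 of 8 erythroid markers were. Defining genes such as PTPRC and MPO were listed at 0 in all 4 clone 1 libraries. The lysozyme gene LYZ went from 0.995 and 0.861 to 12.8 and 12.5 FPKM (2.82), while CD33 was at 21, 22.4, 25.2 and 25.1 FPKM in clone 1, did not pass (adjusted p = 0.27, limma), passed as higher in 2 alternatives and was at 0.149 to 0.881 FPKM in untreated and DMSO-treated parental cells. Keratin KRT14 rose by 2.20, from 1.57 and 1.75 to 10.1 and 12.5 FPKM, and KRT8 fell by 0.69, lost without DMSO replicate 1. KRT18 and CLDN4 did not pass. KDR, an endothelial growth factor receptor, was at 3.71, 4.07, 6.82 and 5.91 FPKM, a rise of 0.59 lost under several alternatives. The erythroid HBG2 did not pass (adjusted p = 0.052). Their part in the results was not tested.

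Small structured RNAs, which depend on library preparation, were tested for 34 genes, of which 9 rose and 1 fell, with a median of 0.65. Of 9 nuclear long noncoding RNAs, 1 rose and 3 fell. GAS5 fell by 0.71 and SNHG1 rose by 0.41, the latter lost under median-ratio scaling. NEAT1 fell by 1.14 (adjusted p = 0.036, limma), lost when any 1 library was left out, and MALAT1 was at 40.7, 37.4, 30.5 and 17.0 FPKM. The 37 mitochondrially encoded genes were listed at 0 and were not tested.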

How the data were processed

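RNA-seq of A375 cells was analysed as the FPKM values deposited by the authors, 1 column per library. Per the submitters' processing notes, TopHat 1.4.1 and Cufflinks were used with build hg19; the sources used here do not give the Cufflinks version, annotation or strandedness. Groups follow the sample titles. A gene was kept where 2 or more of the 4 clone 1 libraries reached 1 FPKM, values were taken as log2(FPKM + 1), and limma 3.58.1 (R 4.3.3, trend and robust options) was fitted to all 18 A375 libraries with 1 mean per group (9 residual degrees of freedom), two-sided, with Benjamini-Hochberg adjustment over all 15362 genes. FPKM carries no read counts, so no count model was used and the depth behind a value is unknown. Differences between populations were contrasts of the same fit. In simulated data with 50 genes changed at each fold, the clone 1 comparison recovered 42% at 1.5-fold, 82% at 2-fold and 98% at 3-fold. It gave 5 false calls among the unchanged genes of the 15362. The difference from parental cells recovered 16% at 1.5-fold and 54% at 2-fold, and the difference from clone 4 recovered 16% and 50%. The changed genes had a mean of at least 5 FPKM. Noise was normal, with 1 spread per gene for all groups, and no shift in scaling was simulated. These rates do not cover genes at lower levels, groups of unequal spread or a change in most genes.

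Named genes were the 15 largest rises and 15 largest falls past the threshold (a mean of 5 FPKM or more in the higher state, no overlap), the 4 most significant members, at most, of each of 49 gene lists, a fixed set of BET, apoptosis and cell cycle genes, and up to 8 genes each way with the largest difference from parental cells or clone 4; others are said to be chosen after their values were seen. The members and lists were chosen with earlier results of these data known. The 5 parental genes low in the clones served the label check only. Upstream sequences are from RefSeq (GRCh38.p14). Alternatives were another pseudocount, other filters, quantile, median-ratio, equal-sum and length and GC scaling (GENCODE release 29), other fits, a replicate block and leaving out libraries. Some genes that these rules select are not reported here.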

Additional observations from a re-analysis of the deposited data

Results flagged for a closer look

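The change between untreated and 6 h of DMSO differed between populations in the genes given here, by a limma test of the difference itself (adjusted p below 0.05 over all genes), with clone 1 minus the other population on the log2 scale. Against parental cells the difference was 3.68 for KIAA1199, 3.19 for ZNF532, 3.07 for SHROOM2, 3.01 for CAPS, 3.0 for PRRX1, 2.95 for PDZD2, 2.85 for NTM and 2.84 for ANO1. It was -3.66 for HILPDA, -3.51 for NDRG1, -3.44 for RP11-442H21.2, -3.42 for BNIP3, -3.28 for CTGF, -3.27 for BNIP3P1, -3.24 for ANGPTL4 and -2.99 for CTC-260F20.3. The calls of RP11-442H21.2 and CTC-260F20.3 were lost in several alternatives.

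Against clone 4 the difference was 1.14 for LYPD3, 1.07 for RHOB, 1.06 for RRM2, 1.00 for LYZ, 0.99 for CPT1A, 0.99 for CTGF, 0.96 for RRM2P3 and 0.91 for LA16c-3G11.7. It was -2.53 for TXNIP, -2.06 for C10orf10, -1.92 for HILPDA, -1.68 for KB-1980E6.3, -1.63 for GSTM2, -1.57 for SERPINA3, -1.56 for CCL5 and -1.52 for IGFBP3. With only the compared libraries in the fit, LYPD3, RHOB, RRM2, LYZ, CPT1A, CTGF, RRM2P3, LA16c-3G11.7, GSTM2, SERPINA3 and CCL5 no longer passed. KB-1980E6.3 and LYPD3 did not pass with a pseudocount of 0.1. RRM2 was also lost with no filter and after quantile normalization, and CPT1A with no filter, on equal sums and with a replicate block. The calls of LYPD3, RHOB, RRM2, CPT1A, RRM2P3, LA16c-3G11.7 and GSTM2 also depended on single libraries. All groups had 2 libraries, too few to look for a single library far from the others within a group.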

How the results depend on the processing

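Under the alternatives, 188 of 224 single values kept their direction and side of the threshold, 36 crossed it in at least 1 alternative, and 2 reversed: BCL2L1 was -0.017 with median-ratio scaling and CD33 -0.0011 after quantile normalization. The number of genes called higher in clone 1 (4933) was 3279 with median-ratio scaling, 796 at an absolute log2 difference of 1, and 3579 to 4019 when 1 library was left out. The number called lower (2100) was 3365 after quantile normalization, 3264 with median-ratio scaling, 3284 without the 3 libraries that stood apart, 385 at a log2 difference of 1 and 1477 to 1595 with 1 left out. Against parental cells, the higher count (2257) was 1445 with median-ratio scaling, 3827 without the 3 libraries, 678 at a log2 difference of 1 and 1485 to 2422 with 1 left out. The lower count (967) was 1676 after quantile normalization, 1549 with median-ratio scaling, 1519 with length and GC correction, 1890 without the 3 libraries, 306 at a log2 difference of 1 and 649 to 963 with 1 left out. Against clone 4, the higher count (49) was 29 with a pseudocount of 0.1, 87 on equal sums, 290 with length and GC correction, 0 by limma on the compared libraries alone (1412 genes at an unadjusted p under 0.05), 343 without the 3 libraries, 5 at a log2 difference of 1 and 3 to 1059 with 1 left out. The lower count (105) was 60 with that pseudocount, 165 after quantile normalization, 264 with length and GC correction, 7 on the compared libraries alone, 304 without the 3 libraries, 45 at a log2 difference of 1 and 28 to 1088 with 1 left out. The genes raised by CPI203 in parental cells and lower in clone 1 (189) numbered 308 with a pseudocount of 0.1, 73 at a log2 difference of 1 and 143 to 158 with 1 library left out; those lowered and higher (474) numbered 766, 281 and 431 to 446. The cause of these shifts was not tested. A replicate block gave 4851 higher and 2039 lower genes. Replicate 1 minus replicate 2 differences in DMSO correlated with those in untreated cells at 0.303 in clone 1, 0.290 in parental cells and -0.148 in clone 4. The labels tie the replicate numbers to no batch. Leaving out a library leaves its group with 1, which is then assumed to vary like the others. Absolute depth could not be assessed from FPKM (relative depth estimated from the steps of low values was 0.961, 0.951, 1 and 0.928 in the 4 clone 1 libraries), and 97.36% of genes had a length and GC content.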
